A study of Mus musculus with 6 samples.

Results

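Integrins, selectins and their partner adhesion molecules were followed as 36 named genes among the 22899 genes of each table, all 36 of which were found by symbol. The RNA came from helper (CD4+) T lymphocytes that had been sorted by flow cytometry from spleens of C57BL/6 mice. Obese mice had received a high-fat diet with 60 kcal% fat and lean mice a normal diet, in general started at 6 to 8 weeks of age and kept for up to 4 months. Each group had 3 libraries, and levels are in FPKM, a fragment number corrected for transcript length and for how many fragments of that library were mapped. The labels do not say whether a library stands for 1 mouse, and every p-value here covers only library-to-library spread, which may be technical.

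An integrin is a pair of an alpha and a beta chain that spans the cell membrane and binds matrix proteins or receptors on other cells. Lymphocytes use beta2, beta1 and beta7 integrins to stop on vessel walls, to enter tissue and to hold on to antigen-presenting cells, while selectins and their glycoprotein ligands support the rolling that comes before. Red pulp macrophages of the spleen, red cell precursors and platelets carry integrins and adhesion receptors of their own.

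As a check of the label, Cd4 had 323.46, 325.32 and 279.31 FPKM in obese libraries, against 362.61, 323.77 and 333.2 FPKM in lean libraries. The 7 T helper markers found, of 8 listed, summed to 2047 to 2487 FPKM in obese and 2335 to 2581 FPKM in lean libraries, and none was called. Transcripts of other cells were also present in all 6 libraries. The 2 CD8 T cell markers, Cd8a and Cd8b1, summed to 48.6 to 79.6 FPKM in obese and 55.1 to 74.7 FPKM in lean libraries, and neither was called. The summed FPKM of 17 macrophage markers was 1583 to 1748 in obese and 671 to 777 in lean libraries, and none of the 17 was at 0 in any library. For 12 erythroid markers, the listed 13 less Ahsp, which was not found by symbol, the sum was 4378 to 29116 FPKM in obese and 176 to 477 FPKM in lean libraries. Neutrophil markers (14 genes) summed to 175 to 480 FPKM in obese and 618 to 901 FPKM in lean libraries, and NK cell markers (8 genes) to 90.3 to 105 FPKM in obese and 118 to 148 FPKM in lean libraries. Of these, 7 neutrophil and 3 NK cell markers were called lower and none higher, against 0.519% and 5.77% of all tested genes. Ly6g, among the 7, reached 1 FPKM in lean libraries alone. Csf3r, Cxcr2 and Eomes had positive log2 differences (0.17, 0.10 and 0.23) and were not called. In bulk RNA, fewer cells of a type and less RNA per cell cannot be told apart.

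Setting obese beside lean libraries addresses which adhesion transcripts differ in level in the RNA of this sort. That RNA also holds transcripts of other cells, so a difference need not lie in helper T cells. Of the 36 genes, 24 reached 1 FPKM in at least 1 library and 12 did not and are taken as not expressed. All 24 also had at least 1 FPKM in at least 3 libraries and were tested. Among them 6 rose and none fell in obese libraries (limma, Benjamini-Hochberg-adjusted p under 0.05 over all tested genes), and at an unadjusted p under 0.05 there were 8 higher and 1 lower. Over all 10788 tested genes 6.28% were called, 5.77% as higher and 0.519% as lower, and at an unadjusted p under 0.05 there were 21.9% higher and 4.01% lower. Higher genes thus made up 91.7% of all calls, a share that was 77.4% after median-of-ratios scaling of the libraries and 74.2% after quantile normalization, while the same number of adhesion genes, 6, was called higher under both. The 6 were Itgad, Itgb5, Itga9, Icam4, Itgb1 and Itga4, of which the first 3 also passed when every gene above 0 in any library was tested and the other 3 did not (limma, BH-adjusted p of 0.0554, 0.0735 and 0.0574). The median difference of the 24 genes on the log2(FPKM + 1) scale was 0.13, against 0.10 for all tested genes, so the typical adhesion gene lay close to the typical gene. Groups did not overlap for 10 of the 24 as higher and 1 as lower, against 25.4% and 6.15% of all tested genes.

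**Figure D1:**
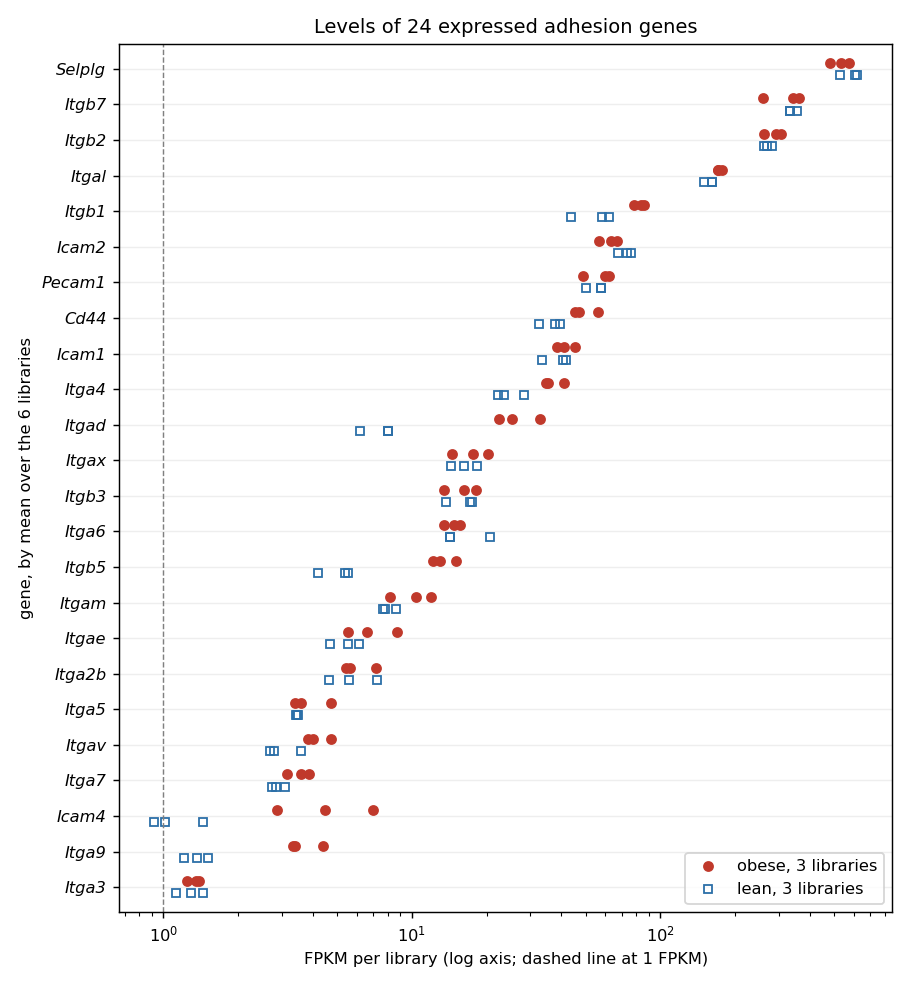
FPKM of the 24 expressed adhesion genes in each library on a log axis, with obese libraries as filled circles and lean libraries as open squares. Selplg, Itgb7, Itgb2 and Itgal stand at the top with overlapping or close groups, while the obese libraries of Itgad, Itgb5, Itga9 and Icam4 lie well to the right of the lean ones.

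The beta2 integrins are the leukocyte family, and their shared beta chain Itgb2 was among the most abundant adhesion transcripts. Itgb2 had 291.28, 304.45 and 262.36 FPKM in obese libraries, against 280.79, 262.15 and 269.28 FPKM in lean libraries. Its groups overlapped, and the log2 difference of 0.08 (95% interval -0.10 to 0.26) did not pass. Itgal, which pairs with Itgb2 as LFA-1, the main T cell receptor for ICAM-1 and ICAM-2, had 170.9, 177.73 and 171.28 FPKM in obese and 161.67, 160.78 and 150.48 FPKM in lean libraries. Every obese library was above every lean one, yet the log2 difference of 0.14 ± 0.07 (SE) did not pass (limma, BH-adjusted p = 0.235).

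Itgad, the alpha chain CD11d, had the largest difference of the 24 genes on the log2(FPKM + 1) scale. It is known for its high level on red pulp macrophages of the mouse spleen. Itgad had 32.74, 25.33 and 22.46 FPKM in obese libraries, against 6.21, 7.99 and 8.04 FPKM in lean libraries. The lowest obese value was well above the highest lean value. The log2 difference was 1.72 ± 0.15 (SE; limma, BH-adjusted p = 0.000553), and the ratio of mean FPKM was 3.62.

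Itgad (gene 381924, chromosome 7, 128173933 to 128205504, GRCm38) lies in a row with the genes of the other myeloid alpha chains. Itgax is 23275 bases before it, and Itgam is 11034 bases before Itgax. Itgam, the alpha chain of the complement receptor Mac-1 found on neutrophils and macrophages, had 8.18, 10.39 and 11.99 FPKM in obese and 7.69, 7.83 and 8.62 FPKM in lean libraries. Its groups overlapped and its log2 difference of 0.29 (95% interval -0.01 to 0.60) did not pass (limma, BH-adjusted p = 0.208). Itgax, the alpha chain CD11c of dendritic cells and some macrophages, had 14.57, 17.69 and 20.26 FPKM in obese and 14.44, 18.35 and 16.24 FPKM in lean libraries, which overlapped widely (log2 difference 0.09, 95% interval -0.21 to 0.39). Itgad was thus the one of these 3 neighbours that passed, and whether their differences are unequal was not tested. The 7 dendritic cell markers summed to 15.7 to 23.2 FPKM in obese and 15.4 to 18.5 FPKM in lean libraries.

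Itgb5 pairs with the alpha V chain as a vitronectin receptor that phagocytes use to take up dying cells. It had 15.08, 12.22 and 13.03 FPKM in obese libraries, against 4.18, 5.56 and 5.37 FPKM in lean libraries. All obese values were more than double any lean value. The log2 difference was 1.26 ± 0.13 (SE; limma, BH-adjusted p = 0.000843). Itgav, its partner, had 3.83, 4.01 and 4.75 FPKM in obese and 2.68, 2.8 and 3.59 FPKM in lean libraries. These groups did not overlap, but the log2 difference of 0.37 ± 0.13 (SE) did not pass (limma, BH-adjusted p = 0.118).

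Itga9 pairs with beta1 and binds tenascin C and osteopontin. It had 4.4, 3.38 and 3.32 FPKM in obese libraries, against 1.37, 1.21 and 1.52 FPKM in lean libraries. Obese libraries were again all above lean ones, with obese 1 highest as for Itgad and Itgb5. The log2 difference was 0.98 ± 0.13 (SE; limma, BH-adjusted p = 0.00299), and since the pseudocount of 1 is near the lean values, this understates the ratio of mean FPKM, which was 2.71.

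Macrophage markers moved in the same direction as these integrins. Of the 17 markers, 16 rose and none fell. Adgre1, which encodes the macrophage surface protein F4/80, had 33.54, 25.78 and 24.87 FPKM in obese and 8.41, 9.42 and 11.04 FPKM in lean libraries. Spic, a transcription factor of red pulp macrophages, had 30.15, 22.73 and 24.41 FPKM in obese and 6.05, 5.04 and 8.43 FPKM in lean libraries. Obese 1 was the highest obese library for 15 of the 17 markers, as it was for Itgad, Itgb5 and Itga9. The part of macrophage RNA in the differences of Itgad, Itgb5 and Itga9 was not tested.

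**Figure D2:**
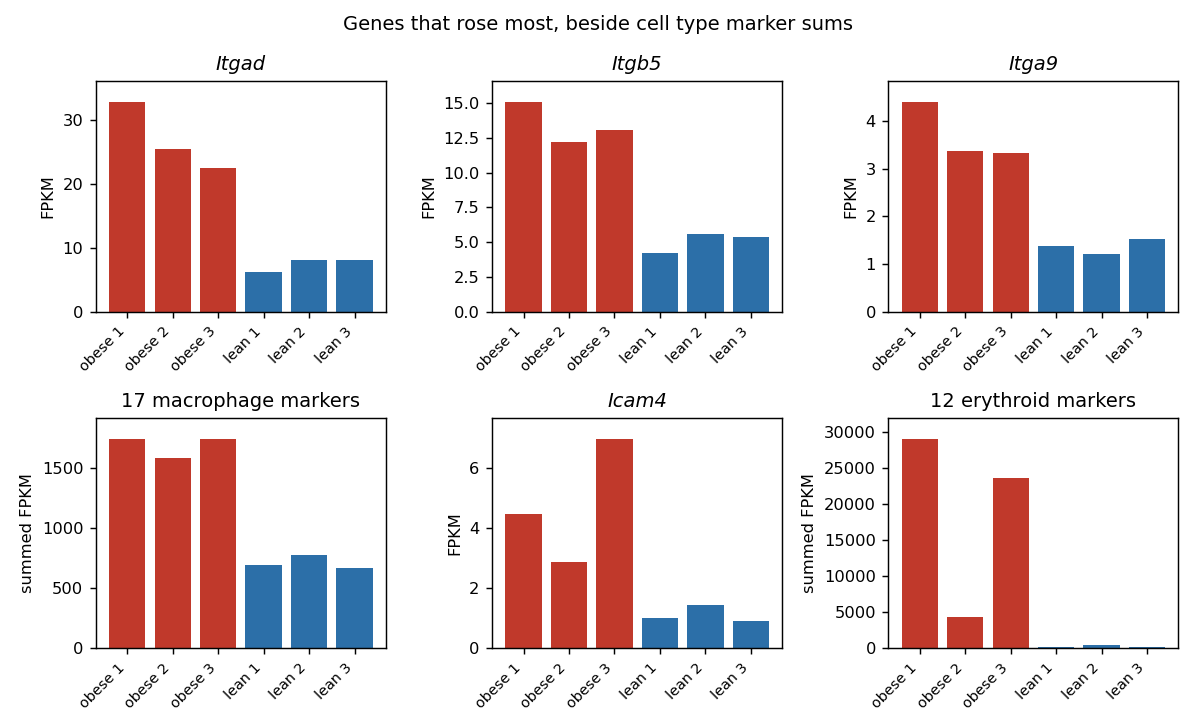
FPKM per library of Itgad, Itgb5, Itga9 and Icam4, and the summed FPKM of 17 macrophage and 12 erythroid markers, with obese libraries in red and lean libraries in blue. The macrophage sum is 1583 to 1748 in obese and 671 to 777 in lean libraries, and obese 2 is the lowest obese library for both Icam4 and the erythroid sum.

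Icam4 encodes the Landsteiner-Wiener glycoprotein, an adhesion receptor of red cells and their precursors that binds leukocyte integrins. It had 4.48, 2.88 and 6.98 FPKM in obese libraries, against 1.02, 1.44 and 0.92 FPKM in lean libraries. The groups did not overlap, and the highest obese value was more than double the lowest. The log2 difference was 1.39 ± 0.24 (SE; limma, BH-adjusted p = 0.0124), and the ratio of mean FPKM was 4.24. Icam4 reached 1 FPKM in 2 of the 3 lean libraries, so it could pass the low-value filter through the obese libraries by themselves. All 11 tested erythroid markers rose. Klf1, a transcription factor of red cell precursors, had 15.67, 11.16 and 28.85 FPKM in obese and 4.93, 4.17 and 4.21 FPKM in lean libraries. Obese 2 was the lowest obese library for Icam4 and for all 12 erythroid markers. The highest was obese 3 for Icam4 and for 7 of the 12 markers, Klf1 among them, and obese 1 for the other 5, which include the globins, and for the summed level. The part of erythroid RNA in the difference of Icam4 was not tested.

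Icam4 (gene 78369, chromosome 9, 21029432 to 21030596, GRCm38) begins 617 bases after the end of Icam1 and ends 1441 bases before Icam5. Icam1, the inducible ligand of LFA-1, had 38.37, 41 and 45.42 FPKM in obese and 41.71, 40.55 and 33.33 FPKM in lean libraries. Its groups overlapped, and the log2 difference of 0.11 (95% interval -0.13 to 0.35) did not pass. Icam5, a neuronal family member, was not expressed, with 0.24 to 0.46 FPKM over the 6 libraries.

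Promoter windows of 4 of the genes that rose are shown because these genes have entries in RefSeq's GRCm38 promoter table that start at the gene's first base. Each runs from 250 bases before to 50 bases after that start on the plus strand. Capitals mark matches, on either strand, to the GATA factor motif AGATAA or TGATAA or to the PU.1 core GAGGAA, and no matches overlapped. GATA factors are known for red cell genes and PU.1 for macrophage genes.
Icam4, chr9:21029182-21029481: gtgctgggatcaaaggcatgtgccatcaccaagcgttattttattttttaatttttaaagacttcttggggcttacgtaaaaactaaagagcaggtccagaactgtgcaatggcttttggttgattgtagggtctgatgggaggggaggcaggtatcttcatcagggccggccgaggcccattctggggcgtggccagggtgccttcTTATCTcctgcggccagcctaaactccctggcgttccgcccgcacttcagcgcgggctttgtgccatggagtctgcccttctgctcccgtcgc
Itgb5, chr16:33829415-33829714: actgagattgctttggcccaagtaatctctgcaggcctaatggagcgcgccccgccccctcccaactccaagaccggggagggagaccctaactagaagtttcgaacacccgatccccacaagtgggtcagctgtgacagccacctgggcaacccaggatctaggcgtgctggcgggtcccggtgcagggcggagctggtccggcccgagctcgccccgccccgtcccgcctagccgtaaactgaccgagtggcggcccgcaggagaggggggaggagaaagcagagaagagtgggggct
Itgb1, chr8:128685404-128685703: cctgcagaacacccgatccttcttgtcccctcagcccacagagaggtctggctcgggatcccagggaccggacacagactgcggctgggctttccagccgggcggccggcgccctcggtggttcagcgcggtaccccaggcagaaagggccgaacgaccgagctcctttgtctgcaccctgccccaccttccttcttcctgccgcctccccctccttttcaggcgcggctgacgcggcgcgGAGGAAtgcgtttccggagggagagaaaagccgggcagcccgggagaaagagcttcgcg
Itga4, chr2:79255176-79255475: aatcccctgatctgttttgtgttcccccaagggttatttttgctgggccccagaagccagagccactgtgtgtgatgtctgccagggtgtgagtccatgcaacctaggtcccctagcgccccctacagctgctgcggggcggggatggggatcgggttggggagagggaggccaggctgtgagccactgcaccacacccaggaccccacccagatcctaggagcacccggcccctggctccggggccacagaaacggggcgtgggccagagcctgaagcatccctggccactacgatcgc

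The Icam4 window held 1 GATA match, which begins 43 bases before the start and reads AGATAA on the minus strand. One of the GATA forms is found in 18.6% of the 32851 promoter windows of that length. The Itgb1 window held 1 PU.1 match, which begins 9 bases before the start, and 28.3% of all windows hold that core. The Itgb5 and Itga4 windows held neither motif. A match is a run of letters and not a shown binding site.

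Itgb1 and Itga4 are the chains of the fibronectin receptor VLA-4, which effector and memory T cells carry at a higher level than naive cells and which myeloid cells carry too. Itgb1 had 78.26, 85.83 and 83.54 FPKM in obese libraries, against 58.07, 43.82 and 62.11 FPKM in lean libraries. Itga4 had 35.18, 34.67 and 40.95 FPKM in obese libraries, against 23.58, 22.19 and 28.31 FPKM in lean libraries. For both chains all obese libraries were above all lean ones, and lean 2 was the lowest library. The log2 differences were 0.60 ± 0.12 for Itgb1 (SE; limma, BH-adjusted p = 0.0252) and 0.57 ± 0.11 for Itga4 (SE; limma, BH-adjusted p = 0.0204). Mean Itgb1 was 82.5 ± 3.88 FPKM in obese and 54.7 ± 9.61 FPKM in lean libraries, and mean Itga4 was 36.9 ± 3.49 FPKM in obese and 24.7 ± 3.21 FPKM in lean libraries (SD, n = 3 each). The call of Itgb1 was lost when lean 1 or any 1 of the obese libraries was left out (limma, BH-adjusted p up to 0.0692). The call of Itga4 was lost when lean 1, lean 2 or obese 3 was left out (limma, BH-adjusted p up to 0.0757). Plasma cells carry VLA-4 as well, and 6 plasma cell markers summed to 767.69, 837.82 and 1393 FPKM in obese and 479.1, 563.84 and 524.96 FPKM in lean libraries. Of the 6, 1 was called higher, and all 6 were higher at an unadjusted p under 0.05 (limma). B cell markers (10 genes) summed to 515 to 972 FPKM in obese and 356 to 774 FPKM in lean libraries. None of the 10 was called, and 3 were higher at an unadjusted p under 0.05 (limma). Over all tested genes 5.77% were called higher, and 21.9% were higher at that unadjusted p. Obese 3 was the highest obese library for Itga4 and for the plasma and B cell sums, and obese 2 was for Itgb1. For 15 of the 17 macrophage markers it was obese 1. The part of macrophage, plasma cell or B cell RNA in the differences of Itgb1 and Itga4 was not tested.

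The beta7 chain is the other partner of Itga4, and that pair directs lymphocytes to the gut. Itgb7 had 342.2, 360.9 and 258.79 FPKM in obese libraries, against 333.4, 354.49 and 331.58 FPKM in lean libraries. Obese 3 was the lowest library and the groups overlapped (log2 difference -0.10, 95% interval -0.37 to 0.18). Itgae, the alpha chain CD103, pairs with Itgb7 to bind E-cadherin. It had 6.61, 5.54 and 8.69 FPKM in obese and 6.11, 5.54 and 4.67 FPKM in lean libraries. These groups overlapped as well (log2 difference 0.29, 95% interval -0.07 to 0.65).

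Chains can be compared inside each library, where library scaling cancels but for the pseudocount. Of 7 such log2 ratios, 6 of partner chains and 1 of the beta chains Itgb1 and Itgb2, those of Itga4 to Itgb7 and of Itgb1 to Itgb2 had groups that did not overlap. Itga4 to Itgb7 stood at -3.25, -3.34 and -2.63 in obese and -3.77, -3.94 and -3.50 in lean libraries, a difference of 0.66. Itgb1 to Itgb2 stood at -1.88, -1.81 and -1.64 in obese and -2.25, -2.55 and -2.10 in lean libraries, a difference of 0.52. Each gave p = 0.1 in a 2-sided exact permutation test, the smallest that 3 against 3 libraries allow, and 0.35 after BH adjustment over the 7. The ratio of Itga4 to Itgb1 differed by -0.03 (exact permutation p = 0.7) and those of Itgal, Itgam and Itgax to Itgb2 and of Itgae to Itgb7 by 0.06, 0.22, 0.01 and 0.39, with exact permutation p of 0.3 to 1. Without obese 3 the differences of Itga4 to Itgb7, Itgae to Itgb7, Itgam to Itgb2 and Itgal to Itgb2 were 0.44, 0.089, 0.041 and 0.0071.

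FPKM is scaled by transcript length, so levels of different chains can be set side by side. Among alpha chains Itgal was highest in all 6 libraries and Itga4 next in all 6. Itgad and Itgax changed places, with Itgad above Itgax in 3 of the 6 libraries. The 18 alpha chains summed to 308.76, 310.01 and 313.59 FPKM in obese and 254.21, 254.67 and 257.07 FPKM in lean libraries, so the sum was higher in every obese library. As a share of that sum, Itgad took 8.65% ± 1.77 in obese and 2.90% ± 0.398 in lean libraries (SD, n = 3 each). Itga4 took 11.9% ± 1.03 in obese and 9.67% ± 1.20 in lean libraries, and Itgal took 55.8% ± 1.40 in obese and 61.8% ± 2.80 in lean libraries (SD, n = 3 each).

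The 8 beta chains summed to 745.52, 780.18 and 632.22 FPKM in obese and 694.38, 680.13 and 685.73 FPKM in lean libraries, which overlapped. Itgb7 stood above Itgb2 in 5 of 6 libraries, and Itgb2 above Itgb1 in all 6. Itgb1 took 11.6% ± 1.44 of the beta sum in obese and 7.95% ± 1.35 in lean libraries, and Itgb5 took 1.88% ± 0.275 in obese and 0.734% ± 0.116 in lean libraries (SD, n = 3 each). Itgb7 took 44.4% ± 2.98 in obese and 49.5% ± 2.28 in lean libraries, and Itgb2 took 39.9% ± 1.42 in obese and 39.4% ± 0.955 in lean libraries. These shares are given as descriptions with no test.

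**Figure D3:**
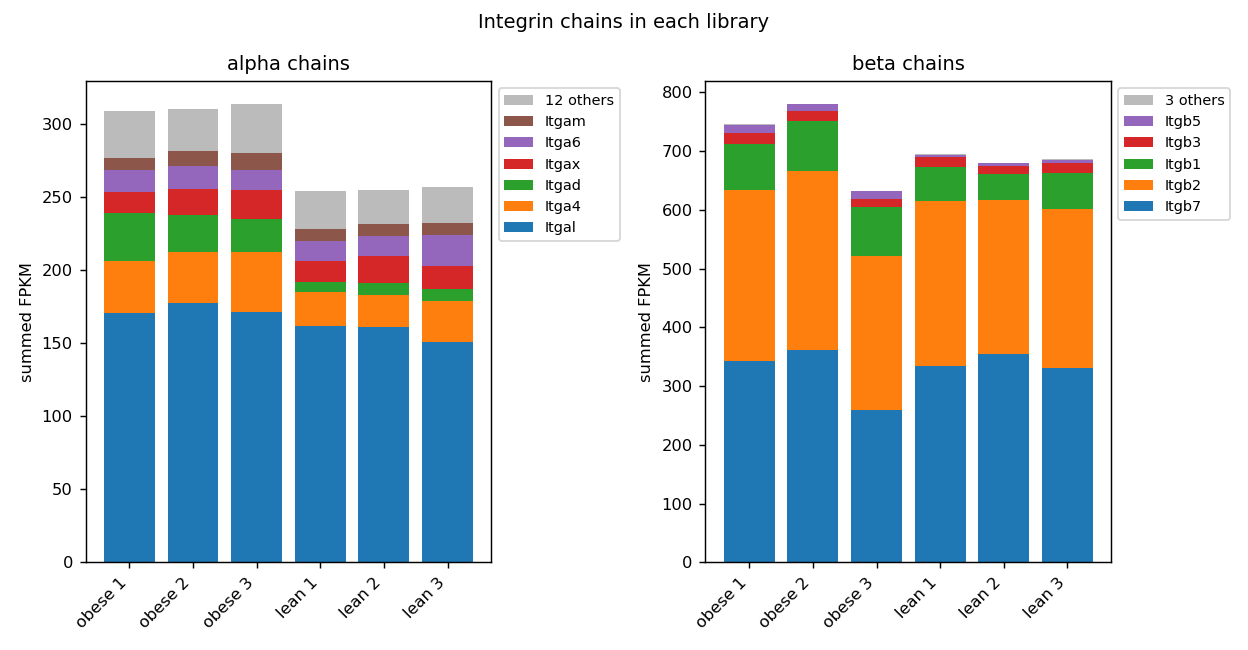
Summed FPKM of the integrin alpha chains and beta chains in each library, with obese libraries to the left of lean ones and colours for single chains. The alpha chains sum to 308.76 to 313.59 FPKM in obese and 254.21 to 257.07 FPKM in lean libraries, and Itgal, Itgb7 and Itgb2 make up the largest blocks.

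The other expressed chains of beta1 integrins had smaller differences, and none passed. Itga6, a laminin receptor chain, had 14.84, 15.58 and 13.42 FPKM in obese and 14.25, 14.27 and 20.7 FPKM in lean libraries, with lean 3 above the other 5 (log2 difference -0.14, 95% interval -0.47 to 0.19). Itga5, of the classical fibronectin receptor, had 3.4, 3.59 and 4.74 FPKM in obese and 3.43, 3.48 and 3.46 FPKM in lean libraries. The obese libraries spanned the lean ones. Itga7 and Itga3 are laminin receptor chains. Itga7 had 3.14 to 3.84 FPKM in obese and 2.73 to 3.09 FPKM in lean libraries, which did not overlap (log2 difference 0.22; limma, BH-adjusted p = 0.250). Itga3 stayed between 1.12 and 1.44 FPKM in all 6 libraries.

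Itga2b and Itgb3 form the fibrinogen receptor of platelets. Itga2b had 7.16, 5.65 and 5.41 FPKM in obese and 7.27, 4.64 and 5.61 FPKM in lean libraries. Itgb3 had 18.16, 16.22 and 13.51 FPKM in obese and 17.4, 13.7 and 17.08 FPKM in lean libraries. Both overlapped fully, with log2 differences of 0.06 (95% interval -0.31 to 0.42) and -0.01 (95% interval -0.31 to 0.29). The 10 platelet markers summed to 51.7 to 72.8 FPKM in obese and 32.9 to 55.3 FPKM in lean libraries.

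Selplg, which encodes the selectin ligand PSGL-1, was the most abundant of the 36 genes. It had 533.38, 575.53 and 481.15 FPKM in obese libraries, against 607.51, 620.18 and 530.6 FPKM in lean libraries. The groups overlapped, and the log2 difference of -0.15 (95% interval -0.37 to 0.07) did not pass (limma, BH-adjusted p = 0.366). Icam2, a constitutive LFA-1 ligand of lymphocytes and endothelium, had 63.13, 67.18 and 56.5 FPKM in obese and 73.45, 76.37 and 67.74 FPKM in lean libraries. It was the single tested adhesion gene with all obese libraries below all lean ones, and its log2 difference of -0.22 ± 0.09 (SE) did not pass (limma, BH-adjusted p = 0.159). Pecam1, the junction receptor CD31 of endothelium, platelets and leukocytes, had 62.23, 60.09 and 48.99 FPKM in obese and 57.74, 57.65 and 50.37 FPKM in lean libraries, which overlapped. The 10 endothelial markers summed to 4.47 to 5.28 FPKM in obese and 2.97 to 3.73 FPKM in lean libraries. Of them 7 stayed under 1 FPKM in all libraries, Emcn was at 0 in some library, and the highest single value was 1.84 FPKM, for Esam in obese 1. Of the 2 endothelial markers tested, 1 was called higher, Esam (limma, BH-adjusted p = 0.0171), against 5.77% of all tested genes. Esam had 1.84, 1.47 and 1.7 FPKM in obese and 0.82, 0.66 and 0.77 FPKM in lean libraries. It thus passed the low-value filter only through the obese libraries. The part of endothelial RNA in the levels of Icam2 and Pecam1 was not tested.

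Cd44, the hyaluronan receptor used as a surface marker of memory T cells, had 45.24, 46.98 and 56.14 FPKM in obese libraries, against 37.74, 32.64 and 39.51 FPKM in lean libraries. The groups did not overlap, and the log2 difference of 0.42 ± 0.11 (SE) missed the threshold (limma, BH-adjusted p = 0.0538). With the replicate number as a block it passed (limma, BH-adjusted p = 0.0314). The part of RNA of other cells in the difference of Cd44 was not tested.

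**Figure D4:**
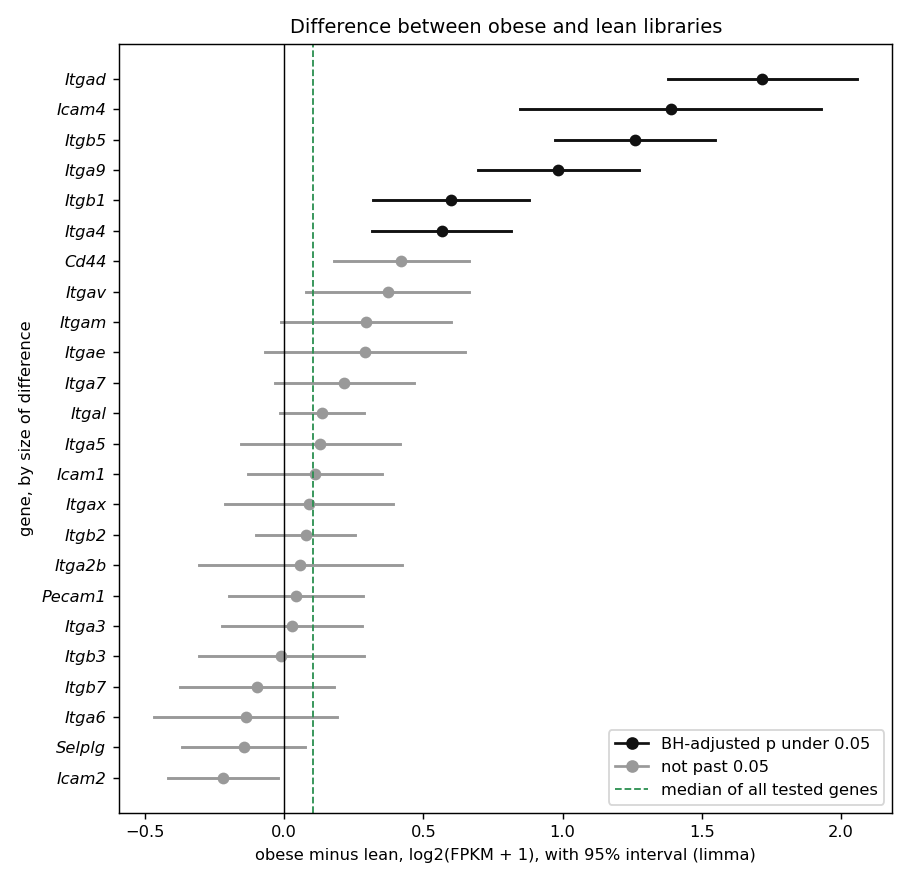
Obese minus lean differences of the 24 expressed adhesion genes on the log2(FPKM + 1) scale, as points with 95% intervals from limma, with the 6 genes past the threshold in black and the median of all tested genes as a dashed line. Itgad, Icam4, Itgb5 and Itga9 lie near or above 1, Itgb1 and Itga4 near 0.6, and most others around the dashed line at 0.10.

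The 12 genes taken as not expressed stayed at or below 0.85 FPKM, the value of Itgb8 in obese 3. They comprise the collagen receptor chains Itga1, Itga2, Itga10 and Itga11, the epithelial and stromal chains Itga8, Itgb4, Itgb6 and Itgb8, and Icam5. They also comprise 3 molecules of vessel walls, the selectins Selp and Sele and the gut addressin Madcam1. Itga11 and Itgb6 were listed at 0 in 4 of the 6 libraries each.

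Genes that work around these receptors were counted against the same shares of all tested genes, 5.77% called higher, and 21.9% higher and 4.01% lower at an unadjusted p under 0.05. Of 18 tested genes of integrin activation, 1 rose and none fell (limma), with 3 higher and 1 lower at an unadjusted p under 0.05 and a median log2 difference of 0.00. These counts are near the shares of all tested genes. It was Skap2, an adaptor of integrin signalling in myeloid cells, with 16.18, 15.25 and 19.61 FPKM in obese and 11.85, 10.17 and 11.68 FPKM in lean libraries (log2 difference 0.55; limma, BH-adjusted p = 0.0252). Of 15 linkers between integrins and actin, 1 rose and none fell (limma), with 3 higher and 1 lower at an unadjusted p under 0.05, which is also near those shares. It was Parvb, which binds integrin-linked kinase, with 8.18, 6.23 and 8.65 FPKM in obese and 4.78, 4.39 and 4.96 FPKM in lean libraries (log2 difference 0.60; limma, BH-adjusted p = 0.0315). After quantile normalization or without the low-value filter neither Skap2 nor Parvb passed, and Parvb also did not after median-of-ratios scaling (limma, BH-adjusted p of 0.0632 and 0.0641 for Skap2 and of 0.122, 0.0850 and 0.0543 for Parvb). Leaving out lean 1, lean 2, obese 1 or obese 3 also ended both calls, with BH-adjusted p (limma) up to 0.0917 for Skap2 and 0.111 for Parvb.

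Of 5 tested integrin ligands 1 rose and none fell (limma), with 3 higher and none lower at an unadjusted p under 0.05, beside 5.77% called higher and 21.9% higher at that p over all tested genes. Fn1, which encodes fibronectin, had 13.5, 13.05 and 15.96 FPKM in obese libraries, against 5.67, 5.81 and 5.88 FPKM in lean libraries. The lean libraries lay close together, and every obese library was more than double any of them. The log2 difference was 1.16 ± 0.10 (SE; limma, BH-adjusted p = 0.000553), beside the higher sums of macrophage markers in obese libraries given above. Fn1 was highest in obese 3, whereas obese 1 was the highest obese library for 15 of the 17 macrophage markers. The part of macrophage RNA in the difference of Fn1 was not tested. None of the 12 enzymes of selectin ligand synthesis was called (limma), with 2 higher and none lower at an unadjusted p under 0.05, against 21.9% and 4.01% of all tested genes. Gcnt1, the branching enzyme of O-glycans, had 2.23, 1.58 and 4.03 FPKM in obese and 1.17, 1.07 and 1.16 FPKM in lean libraries (log2 difference 0.70; limma, BH-adjusted p = 0.0913). Its difference was 0.92 without obese 2, where it passed (limma, BH-adjusted p = 0.0343), and 0.44 without obese 3, where it did not (limma, BH-adjusted p = 0.143). Fut4, a fucosyltransferase, had 1.15, 1.41 and 1.81 FPKM in obese and 0.9, 0.68 and 1.08 FPKM in lean libraries (log2 difference 0.38; limma, BH-adjusted p = 0.140).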

How the data were processed

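FPKM values of 2 decimals were deposited by the authors, 1 table per library. The submitters' processing notes list Bowtie, RSEM, GRCm38 and mm10 and give no version. How reads were filtered, which annotation was used and whether strand was kept is not stated in the sources used here. Since FPKM divides by a library's mapped fragments, abundant transcripts such as globins lower all others.

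Low FPKM values times transcript length were searched for whole-read steps at assumed fragment lengths of 0 to 250 bases. The best step lay near 17.7 to 22.7 M fragments per library. The step score was 0.163 to 0.397 of a maximum of 1, against 0.731 to 0.861 for simulated whole reads. Values without steps were not simulated, so the search cannot say whether the steps are real. The scores are too low to recover counts, so precision comes from the spread between libraries.

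The test took 10788 genes, those reaching 1 FPKM in 3 or more of the 6 libraries, on log2(FPKM + 1) with limma 3.58.1 in R 4.3.3 (lmFit, eBayes with trend), with group as the sole term. Tests were 2-sided with Benjamini-Hochberg (BH) adjustment over all tested genes and a threshold of 0.05. Differences are obese minus lean and understate the change of low genes. In 10 runs on simulated data the fit recovered 53.5% of genes given a log2 change of 0.5 and 98.25% of those given 1. Of its calls there, 6.54% were false. The simulated noise was independent between genes and a small part of the genes was changed, so these shares need not hold for the real libraries.

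Every member is named. From each surrounding list the called genes are named, or, failing any call, the 2 of lowest p. The members and lists were chosen with earlier results of these data known. Coordinates and promoters are from RefSeq's GRCm38 tables, in which all 36 gene numbers were found, and 5 of the 6 genes that rose had a promoter entry. That of Itga9 starts 104983 bases inside the gene and is not shown.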

Additional observations from a re-analysis of the deposited data

How the results depend on the processing

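Across all 16 alternatives no adhesion gene was called lower, and Itgad, Itgb5 and Itga9 stayed past the threshold in every fit in which they were tested. The number of adhesion genes called higher was 3 without a low-value filter, where Itga4, Itgb1 and Icam4 had BH-adjusted p of 0.0574, 0.0735 and 0.0554, and 4 to 6 when 1 library was left out. Median-of-ratios scaling of the libraries moved the median of all tested genes from 0.10 to -0.0013, and rescaling the libraries to equal sums moved it to 0.17. All tested genes called numbered 678, but 328 at a mean of at least 5 FPKM, 368 without a filter, 434 after quantile normalization and 318 to 707 when 1 library was left out. With the replicate block 7 adhesion genes were called higher, Cd44 being the seventh, and 1015 genes in all. The labels do not say that the numbers pair the libraries, the deviations of same-numbered libraries correlated at 0.03 to 0.19, and obese 1 correlated best with lean 2 (0.16).

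Some differences that had not passed the threshold changed sign, and none passed it after the change. Of these, Itga7 had stood at 0.22 with groups that did not overlap and Itga5 at 0.13. After median-of-ratios scaling these were Itga2b (-0.042), Itga3 (-0.038), Itgax (-0.024), Itgb2 (-0.042), Icam1 (-0.0049) and Pecam1 (-0.075). After quantile normalization they were Itga2b (-0.16), Itga3 (-0.20), Itga5 (-0.11), Itga7 (-0.040), Itgax (-0.028) and Pecam1 (-0.0071), and after rescaling Itgb3 (0.049). When 1 library was left out the differences of these ranged as follows. Itga2b had -0.072 to 0.20, Itga3 -0.023 to 0.078, Itga6 -0.22 to 0.031 and Itgax -0.018 to 0.21. Itgb3 had -0.11 to 0.098, Itgb7 -0.19 to 0.049 and Pecam1 -0.023 to 0.15. The log2 ratio of Itgax to Itgb2 was -0.0030 with a pseudocount of 5, -0.12 after quantile normalization and -0.16 to 0.14 with 1 library left out, and that of Itga4 to Itgb1 was -0.11 to 0.044 with 1 library left out. The cause was not tested.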
